A study of Mus musculus with 6 samples.

Results

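Argonaute (Ago) proteins carry microRNAs (miRNAs) to messenger RNAs, and the footprints that Ago leaves on 3′ UTRs can be searched for the sequences a given miRNA would pair with. The footprints described here are those that hold a site for the miR-15/16, miR-103 or miR-17 family. A site is a 7-nt stretch, on the footprint's own strand, that is the reverse complement of bases 2 to 8 (the seed) of miR-16, miR-103 or miR-17. Of the 6270 Ago footprints in the deposited table, 220 met this rule, and they lay on 198 annotated genes. A miR-15/16 site was present in 125 footprints, a miR-103 site in 61 and a miR-17 site in 60, and 26 of the 220 held sites of more than 1 family. A footprint was included by its sequence and not by its occupancy, while the 3 families were picked with earlier results of these data known.

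Ago HITS-CLIP recovers RNA that ultraviolet light has joined to Ago, here with the antibody 2A8, for sequencing. It was applied to bone-marrow-derived macrophages (BMDMs) of C57BL/6 mice aged 6 to 12 weeks. The groups were wild-type (WT) and APOBEC1-deficient (Apobec1-/-, labelled KO) littermates, with 3 libraries each and M-CSF in the culture medium of both. APOBEC1 is a cytidine deaminase that changes C to U in mRNA, and the growth protocol gives 3 pairs of mice without saying which libraries form a pair. The authors combined the 3 libraries of a genotype into 1 occupancy value per footprint, a ratio of footprint signal to the RNA-Seq expression of the transcript. Beside it stands how many of the 3 KO and 3 WT libraries contained the footprint. With 1 value per genotype, no KO to WT difference below has a replicate check, and a 2-fold rule takes the place of a test. The depth of the libraries is unknown, because the table holds no read counts. Of 10 macrophage marker symbols, with Emr1 also listed as Adgre1, 6 carried a footprint, among them Csf1r, Itgam and Emr1. None of 17 markers of T and B cells, neutrophils or stromal cells did.

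All miRNAs with the same seed share the same sites, so a site names a family and not 1 miRNA. Seed pairing brings Ago to the target, which is then repressed through translation and mRNA decay. The miR-15/16 family is best known for restraining the cell cycle and cell survival, the miR-17 family for promoting proliferation and for limiting cell cycle inhibitors and TGF-β signalling, and miR-103 and its relative miR-107 for roles in metabolism and in regulation of Dicer. In the monocyte and macrophage lineage the miR-17 family is known as a brake on differentiation. The table holds no miRNA levels, so which family member occupied a site was not measured.

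The mature miRNAs are shown because their seeds define the sites. Sequences are from RefSeq (GRCm38.p6), 5′ to 3′, with the seed in capitals. The seed of miR-103 is that of miR-15/16 moved by 1 base, and that of the miR-17 family is unrelated.
miR-16-5p: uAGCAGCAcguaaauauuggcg
miR-15a-5p: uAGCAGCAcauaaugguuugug
miR-15b-5p: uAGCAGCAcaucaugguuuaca
miR-195a-5p: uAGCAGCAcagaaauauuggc
miR-322-5p: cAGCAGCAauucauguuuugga
miR-497a-5p: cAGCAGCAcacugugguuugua
miR-103-3p: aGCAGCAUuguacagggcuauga
miR-107-3p: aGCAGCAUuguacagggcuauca
miR-17-5p: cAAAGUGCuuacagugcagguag
miR-20a-5p: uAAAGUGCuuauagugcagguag
miR-93-5p: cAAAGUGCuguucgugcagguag
miR-106b-5p: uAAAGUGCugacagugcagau

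In the genome the sites read TGCTGCT for miR-15/16, ATGCTGC for miR-103 and GCACTTT for miR-17. The 8-nt word ATGCTGCT holds both of the first 2 sites. It was present in 24 footprints, which are 39.3% of those with a miR-103 site and 19.2% of those with a miR-15/16 site. These footprints count in both families. The target stretches that follow are 22 nt of mm9 sequence, the length of miR-16, read 5′ to 3′ on the strand of the transcript. Each ends 1 base after the site, at the base opposite base 1 of the miRNA, and sites are in capitals. In stretches with both a miR-15/16 and a miR-103 site this holds for miR-15/16. There the base opposite base 1 of miR-103 is the last capital T. The Shoc2 stretch ends after its miR-17 site and shows only the end, CTGCT, of its miR-15/16 site. The stretches belong to footprints with the highest occupancy, found in all 6 libraries, with more than 1 site or with high ratios. Those of Cdk6, Btg2 and Tgfbr2 belong to reported targets of a family. Each stretch lies in or at the edge of a footprint in a 3′ UTR.
Tet3, miR-15/16 (chr6:83315238-83315259, minus strand): tatcccccatccctTGCTGCTg
Rbpj, miR-15/16 (chr5:54046601-54046622, plus strand): ttgctttccagcgtTGCTGCTt
Ski, miR-15/16 (chr4:154528406-154528427, minus strand): ctccagtcctacgcTGCTGCTa
Slc4a7, miR-15/16 (chr14:15630397-15630418, plus strand): ccaaagttcccattTGCTGCTa
Il10ra, miR-15/16 (chr9:45062922-45062943, minus strand): aagccattactcccTGCTGCTc
Entpd7, miR-15/16 (chr19:43804463-43804484, plus strand): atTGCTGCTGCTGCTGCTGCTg
Fnbp1l, miR-15/16 and miR-103 (chr3:122243244-122243265, minus strand): ttagtatctgtgtATGCTGCTa
Btg2, miR-15/16 and miR-103 (chr1:135973066-135973087, minus strand): cacgacagtctgaATGCTGCTa
Gna12, miR-15/16 and miR-103 (chr5:141236018-141236039, minus strand): taaagagcatgcgATGCTGCTa
Rap2c, miR-15/16 and miR-103 (chrX:48359891-48359912, minus strand): gaaatttgcacagATGCTGCTt
Xpo7, miR-103 (chr14:71065104-71065125, minus strand): ctccccatccatggATGCTGCc
Cdk18, miR-103 (chr1:134010910-134010931, minus strand): taaaaagcaccagcATGCTGCc
Cdk6, miR-103 (chr5:3521086-3521107, plus strand): ttttctaaccttgaATGCTGCc
Rasa1, miR-17 (chr13:85355487-85355508, minus strand): gtgcagaatattgcGCACTTTt
Cdkn1a, miR-17 (chr17:29236760-29236781, plus strand): ctcagacctgaataGCACTTTg
Txnip, miR-17 (chr3:96365568-96365589, plus strand): ctcactaagccttaGCACTTTg
Tgfbr2, miR-17 (chr9:115999191-115999212, minus strand): agccaataacgtttGCACTTTa
Shoc2, miR-15/16 and miR-17 (chr19:54106869-54106890, plus strand): CTGCTgaactaaatGCACTTTc

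The sites were more frequent in footprints than beside them, by a modest margin and with overlapping intervals. The miR-15/16 site was present in 1.99% of footprints (95% Wilson interval 1.68% to 2.37%). Windows of the same length on the same strand held it in 1.59% of cases 100 nt upstream and in 1.61% 100 nt downstream. For miR-103 the share was 0.973% in footprints (0.758% to 1.25%), 0.734% upstream and 0.686% downstream. For miR-17 it was 0.957% (0.744% to 1.23%), 0.766% upstream and 0.702% downstream, so the upstream share lay inside the interval. The intervals of the windows overlapped those of the footprints in each family. They reached up to 1.95% for miR-15/16, 0.977% for miR-103 and 1.01% for miR-17. Of all 16384 words of 7 nt, the miR-15/16 site ranked 276 by the number of footprints with the word minus the mean of both windows, the miR-103 site 888 and the miR-17 site 1258. By the same measure, of 10 other families searched, the site of miR-27 ranked 44, that of miR-23 86 and that of miR-142-3p, a miRNA of blood cells, 154. The rest ranked below miR-15/16, from miR-223 at 888, level with miR-103, to miR-24 at 13546. Neighbouring windows can hold sites of their own in the same 3′ UTR.

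Within footprints, miR-15/16 matches lay near the middle more often than an even spread over the pooled footprint positions would put them. Of 136 miR-15/16 matches, 79 (58.1%, 49.7% to 66.0%) had their centre within 15 nt of the footprint midpoint. An even spread over the positions of all these footprints, pooled, would put 35.0% there. Pooling gives long footprints more weight, so that of Plec, with 1092 nt, lowers this figure. A figure that weighs each footprint alike was not computed. The 136 include 5 overlapping matches of Entpd7. For miR-103 it was 27 of 62 (43.5%, 31.9% to 55.9%), and for miR-17 30 of 62 (48.4%, 36.4% to 60.6%), where an even spread would put 41.6% for both. Their intervals include the even spread. The matches of each family fell on both sides of the midpoint in near equal number, 66 before and 65 after for miR-15/16. Over all footprints there were 54 miR-15/16 matches in the 20 nt that follow the midpoint and 38 in the 20 nt before it, against 18 to 41 in each 20-nt stretch from 20 to 200 nt away on either side. The count after the midpoint thus exceeded those stretches, and the count before it did not.

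**Figure D1:**
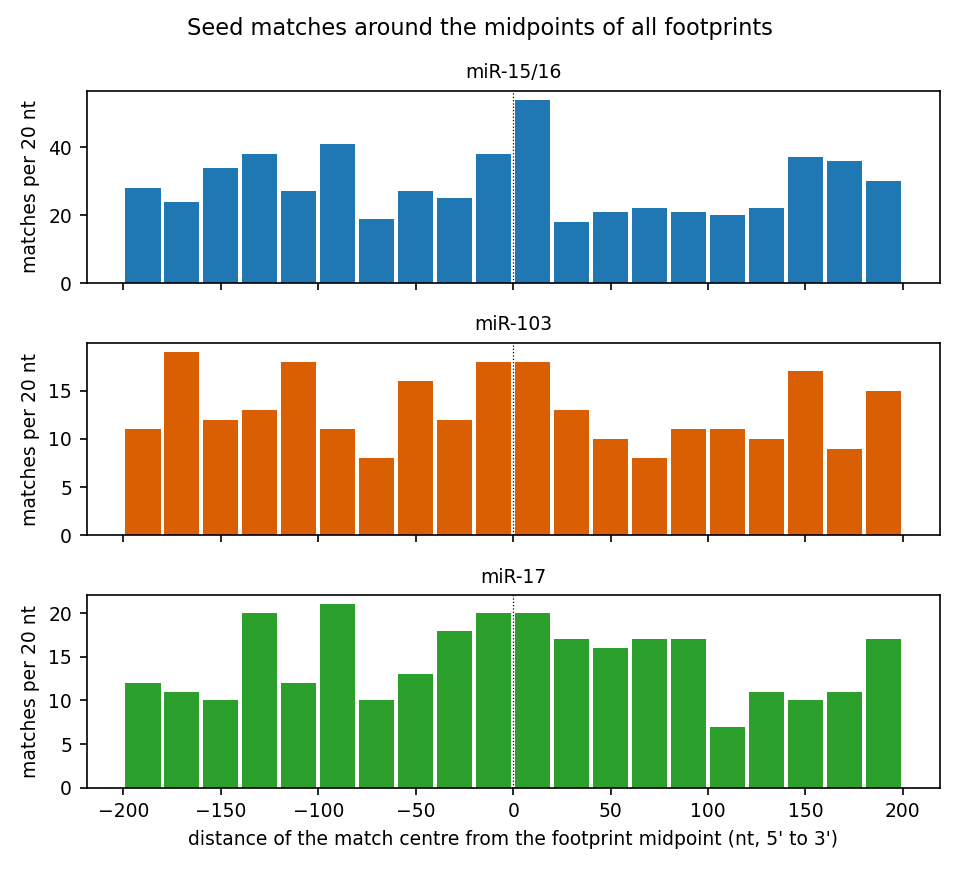
Number of 7-nt matches (y axis, per 20 nt) by distance of the match centre from the footprint midpoint (x axis, nt, 5′ to 3′) around all 6270 footprints, for the 3 families. The miR-15/16 bar just after the midpoint, 54 matches, is the highest of its panel, while the miR-103 and miR-17 bars beside the midpoint, 18 and 20, are matched or passed by bars elsewhere.

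The base that follows the site, opposite base 1 of the miRNA, was A more often for miR-17 matches than for those of miR-15/16. An A there is known to favour Ago binding. A followed 26 of 62 miR-17 matches (41.9%, 30.5% to 54.3%), 16 of 62 miR-103 matches (25.8%, 16.6% to 37.9%) and 33 of 136 miR-15/16 matches (24.3%, 17.8% to 32.1%). In the word ATGCTGCT the base after the miR-103 site is T by definition, and 24 of the 62 miR-103 matches stood in that word. Outside that word the next base was A for 16 miR-103 matches, C for 17 and G for 5. The miR-103 share over all 62 thus does not show that A was rarer than for miR-17 where A was possible. A made up 27.7% of all footprint bases. The 30 nt around a miR-17 match, 15 on each side, had a median A+U content of 60.0%, against 55.0% for miR-103, 51.7% for miR-15/16 and 56.9% over all footprint bases.

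Matches were mostly single. In the 220 footprints there were 260 matches, 258 of them at different genomic places, because Gnptab and Cdc42se2 each had a pair of overlapping footprints that shared a match. More than 1 match was present in 34 footprints, and 24 of these owed it to the word that holds both a miR-15/16 and a miR-103 site. In 7 footprints miR-15/16 matches stood 3 nt apart in a TGC repeat. The longest repeat was in the nucleotide hydrolase gene Entpd7, with 5 overlapping matches, where KO occupancy was 0.459 and WT occupancy 1.16. Tbl1xr1 (0.150 and 0.687), 4831426I19Rik (0.106 and 0.509) and Rsad2 also had lower values in KO, while Cpd (0.991 and 0.519), Tmem55b (0.359 and 0.193) and Myadm (0.190 and 0.156) had higher ones. No KO library held the repeat footprints of Entpd7, Tbl1xr1 and 4831426I19Rik, while at least 2 held each of the others. Matches at separate places were present in 6 footprints. Those of Ankfy1 (0.347 in KO and 0.546 in WT) and of the potassium-chloride cotransporter gene Slc12a7 (0.408 and 0.0719) each held a pair of miR-17 sites. That of Shoc2, a scaffold of Ras signalling, joined a miR-15/16 and a miR-17 site (1.40 in KO and 1.44 in WT). That of Arhgef7, an exchange factor for Rac, joined a miR-17 and a miR-103 site (0.511 and 0.164). Myadm and 4831426I19Rik completed the 6.

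Occupancy of these footprints was ordinary for the table. The median was 0.451 in KO and 0.360 in WT, against 0.377 and 0.406 over all footprints. Annotated 3′ UTRs held 214 of the 220, the coding sequence of Ormdl2 held 1, and 5 overlapped no gene on their strand. Of the 220, 177 lay on genes with more than 1 footprint, and 34 of those were the strongest of their gene in WT and 40 in KO. An equal share among the footprints of each gene would make 46.3 the strongest. Of the members above 0 in KO, 31.3% had a KO value identical to that of another footprint, close to the 33.3% of the whole table. The KO value of 43 members was above 0 although no KO library held the footprint, and the sources used here do not say how such values were made.

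The strongest miR-17 footprint, and the strongest of the 220 in KO, was that of Rasa1, a GTPase-activating protein that switches off Ras. Its occupancy was 7.22 in KO and 3.91 in WT, all 6 libraries held it, and it was the one footprint of its gene. The endocytic adaptor gene Fcho2 followed with 1.36 in KO and 2.02 in WT. Shoc2, named above, came next in the family. The small GTPase gene Rab10 had 0.196 in KO and 2.10 in WT, with a log2 ratio of -3.42, 3 WT libraries and 0 KO libraries. Pafah1b1, a dynein regulator, had 1.00 in KO and 1.24 in WT. The family thus ran from a strong footprint shared by both genotypes to one found in WT libraries alone.

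The strongest miR-15/16 footprint, and the strongest of the 220 in WT, was that of Tet3, which oxidises methylated cytosine in DNA. It had 8.72 in WT and 1.71 in KO (log2 ratio -2.35), with 3 WT and 2 KO libraries. Of the 18 Tet3 footprints it ranked first in WT and eighth in KO, and the median log2 ratio of the other 17 was 0.59, that is, higher in KO. Rbpj, the DNA-binding factor of Notch signalling, had 3.45 in KO and 1.87 in WT and was found in all 6 libraries. Fnbp1l, a membrane-bending actin regulator, had 1.36 in KO and 3.37 in WT at the footprint with both sites. Ski, a co-repressor of Smad proteins, had 1.78 and 2.73, and Slc4a7, a bicarbonate transporter, had 3.35 and 1.01.

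The strongest miR-103 footprint without a miR-15/16 site was that of the poly-ADP-ribose polymerase gene Tnks, with 2.43 in KO and 2.59 in WT. The nuclear transport receptor gene Xpo7 had 3.66 in KO and 0.547 in WT (log2 ratio 2.74), with 3 KO and 2 WT libraries. A second footprint of Xpo7, with a miR-15/16 site, went the other way, with 0.259 in KO and 0.774 in WT, though no KO library held it. Nrp2, a co-receptor for semaphorins and VEGF, had 2.32 and 1.28 at a miR-103 site and 1.25 and 0.460 at a miR-15/16 site. Fnbp1l carried a further miR-103 footprint with 1.57 in KO and 2.55 in WT. Both of its footprints were lower in KO, whereas both of those of Nrp2 were higher.

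**Figure D2:**
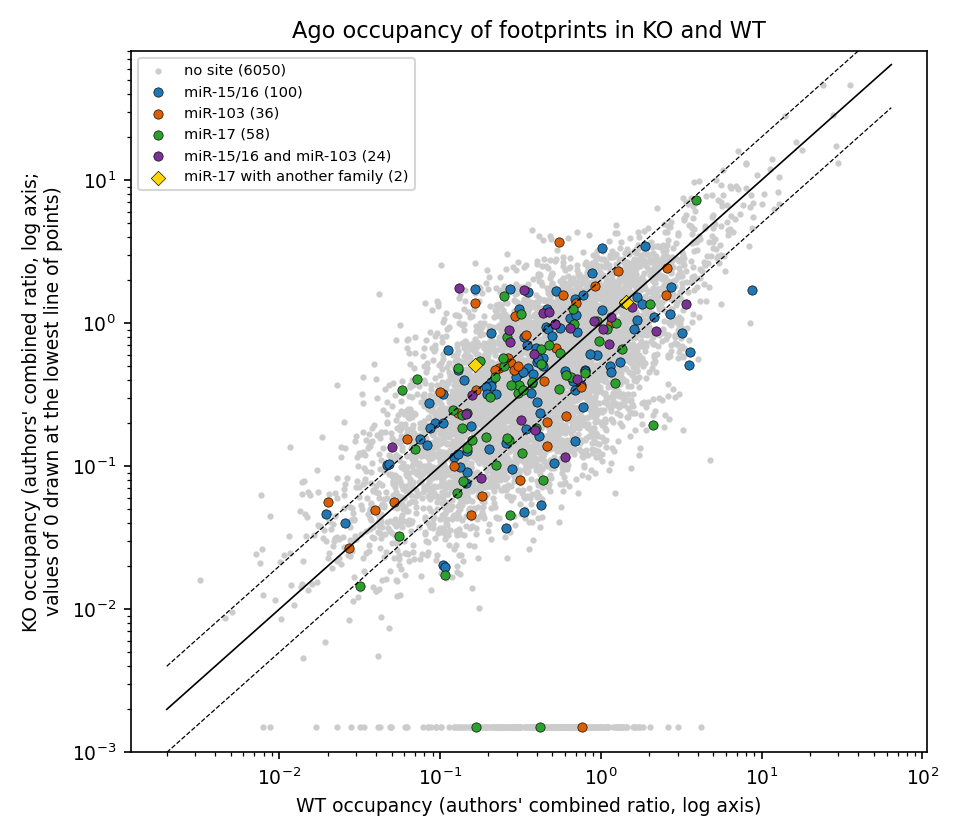
KO occupancy (y axis) against WT occupancy (x axis) of every footprint on log axes, with footprints that hold a site coloured by family, grey for the other 6050, a solid line of equality and dashed lines at 2-fold. The coloured points spread on both sides of the line as the grey ones do, with Tet3 and Rasa1 the highest of them in WT and in KO, and 3 of them listed at 0 in KO and drawn at the lower edge.

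Whether the ratio of KO to WT occupancy differed between footprints with a site and the rest was asked of medians and of shares past 2-fold. Of the 220, 56 (25.5%, 20.1% to 31.6%) were at least 2-fold higher in KO, where the share over all footprints was 18.9%. At least 2-fold lower were 45 (20.5%, 15.7% to 26.3%), where the share over all footprints was 24.2%. Their median log2 ratio was 0.27 (-0.06 to 0.51), against -0.04 (-0.08 to -0.00) over all footprints. The intervals cover variation among footprints and not among replicates. They overlap for the median and for the lower share, but not for the higher share, whose interval over all footprints was 17.9% to 19.9%. By family the median was 0.29 (-0.13 to 0.54) for miR-15/16, 0.66 (-0.09 to 0.98) for miR-103 and 0.03 (-0.48 to 0.43) for miR-17. Of the 61 miR-103 footprints 21 were at least 2-fold higher and 13 at least 2-fold lower.

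Base composition moved with this ratio. The median G+C content was 46.1% for miR-15/16, 45.8% for miR-103, 43.0% for miR-17 and 42.9% over all footprints. Outside the match itself it was 45.2%, 44.8% and 43.0% for the 3 families. Over all footprints the median log2 ratio was -0.53, -0.03 and 0.42 in the low, middle and high tertile of G+C content. The 220 had -0.48 (n = 45), 0.28 (n = 79) and 0.52 (n = 96) in the same tertiles. Taken relative to all footprints of the same tertile, the median of the 220 was 0.15 (-0.12 to 0.39), that of miR-103 0.36, that of miR-15/16 0.10 and that of miR-17 0.03. The part of base composition in the ratios was not tested further.

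**Figure D3:**
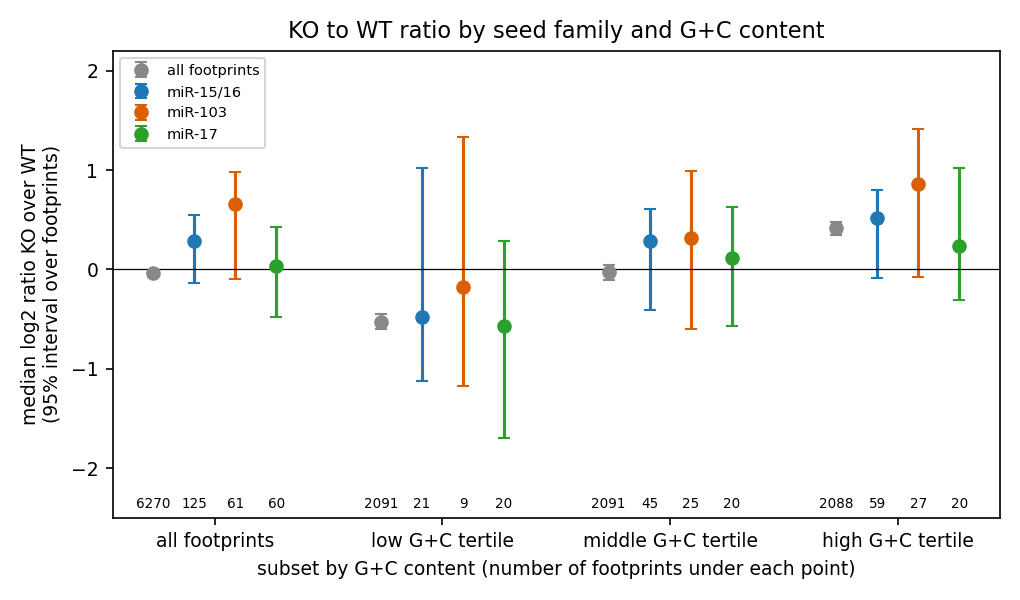
Median log2 ratio of KO over WT (y axis) with its 95% interval over footprints, for all footprints and the 3 families, in the whole table and in tertiles of G+C content (x axis, number of footprints under each point). All 4 groups move upward from the low to the high tertile, from -0.53 to 0.42 for all footprints, and each family interval within a tertile includes the value of all footprints.

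A comparison inside genes removes the expression divisor, as far as it is the same for all footprints of a gene. For 175 members on 159 genes at least 1 other footprint of the gene had no site. Relative to the median of those others, the members' median log2 difference was -0.12 (-0.38 to 0.23), with 83 higher and 92 lower. For miR-15/16 49 were higher and 49 lower. For miR-103 28 were higher and 23 lower, with a median of 0.21 (-0.40 to 0.86). For miR-17 16 were higher and 31 lower, with a median of -0.36 (-1.11 to -0.06). The excess over all footprints was thus not seen against other footprints of the same genes.

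Sites near the midpoint and sites elsewhere gave different medians. The 116 footprints with a match centre within 15 nt of the midpoint had a median log2 ratio of -0.03 (-0.48 to 0.38), and the other 104 had 0.52 (0.12 to 0.89). In the low, middle and high tertiles of G+C content the first group had -0.73, 0.13 and 0.33, and the second had 0.19, 0.31 and 0.76. The difference was not tested. A 6-nt match to bases 2 to 7 without the 7-nt site, present in 400 footprints, went with a median of 0.15 (-0.04 to 0.26). These footprints lie just outside the rule.

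The libraries that held the footprints differed from the table as a whole mainly in KO. At least 2 KO libraries held 50.9% of the 220 (44.3% to 57.4%), against 40.1% of all footprints, and at least 2 WT libraries held 90.5% against 94.9%. No KO library held 46 of the 220 (20.9%), against 27.9% of all footprints. Since a footprint enters the table with at least 2 libraries of 1 genotype, these shares depend on each other. In the high tertile of G+C content the KO shares were 61.5% and 53.2%, in the middle one 49.4% and 40.0%, and in the low one 31.1% and 27.3%. For the 91 members held by 2 or more libraries of KO and of WT alike, the result was a median log2 ratio of 0.71 (0.43 to 0.93), against 0.42 (0.38 to 0.48) over all such footprints. Of them, 31 were at least 2-fold higher in KO and 5 at least 2-fold lower, and over all such footprints the shares were 26.2% and 5.01%. Requiring KO libraries removes footprints that tend to have low KO values.

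All 6 libraries held 16 of the 220 (7.27%, 4.53% to 11.5%), against 5.89% of all footprints. KO occupancy was higher than WT in 14 of the 16, and 56.9% of all footprints found in 6 libraries were higher in KO. Their median log2 ratio was 0.68, against 0.13 over the 369 such footprints. At least 2-fold higher were 3 of the 16 and at least 2-fold lower 0, where the shares over all such footprints were 6.78% and 4.34%. The 16 had lower occupancy than the 369, with medians of 0.464 and 1.02 in KO and of 0.307 and 0.983 in WT. Their median G+C content was 54.9%, against 47.1%. Among footprints of the high tertile of G+C content the medians were 0.70 for 13 members and 0.30 for all 183. The part of base composition was not tested further.

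Rasa1, Rbpj and Txnip were among these 16. Il10ra, which binds interleukin 10, had 0.486 in KO and 0.352 in WT. The antigen Ly6a had 0.441 and 0.379, and the related Ly6e had 0.320 and 0.223. Igf2r, the receptor that carries lysosomal enzymes by their mannose 6-phosphate tag, had 0.870 and 0.714. Gnptab, which makes that tag, had 0.943 in KO and 0.459 in WT in one of its overlapping miR-15/16 footprints, found in 3 KO and 2 WT libraries. Igf1, the growth factor, had 0.565 and 0.409 at a miR-15/16 footprint that ranked low among its 13. The protein kinase gene Cdk18 had 1.38 and 0.701 at a miR-103 site.

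The MHC class I gene H2-D1 had a low occupancy, 0.0464 in KO and 0.0195 in WT (log2 ratio 1.18). Arhgdia had 0.155 and 0.0751 (1.03), and the G protein gene Gna12 had 0.232 and 0.146. The myosin phosphatase subunit gene Ppp1r12c had 0.387 and 0.207, and the cytoskeletal linker gene Plec had 0.811 and 0.499 in a footprint of 1092 nt. Lower in KO were Aldoa, the glycolytic aldolase (0.0761 and 0.146), and Cdkn1a, the CDK inhibitor p21 (0.157 and 0.262). Neither passed 2-fold.

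**Figure D4:**
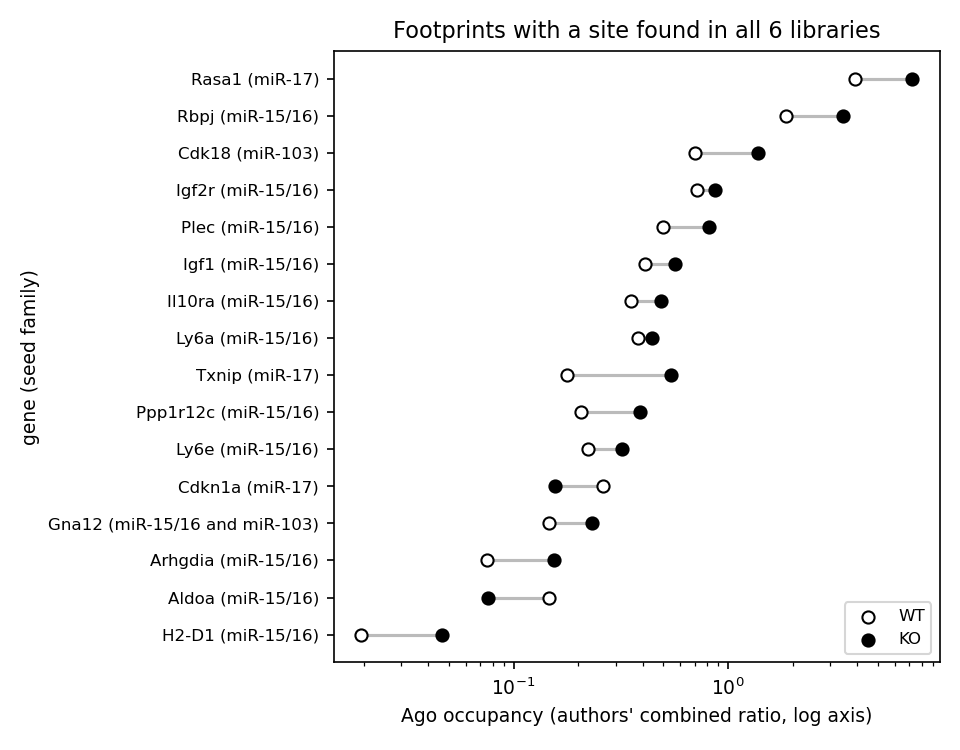
KO (filled) and WT (open) occupancy, on a log axis, of the 16 footprints with a site that all 6 libraries held, with gene and seed family on the y axis. KO lies to the right of WT in 14 rows, and to the left for Aldoa and Cdkn1a.

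The highest ratios among members at or above the table's median occupancy of 0.425 were led by Rap2c, a small GTPase, at a footprint with both a miR-15/16 and a miR-103 site. It had 1.76 in KO and 0.131 in WT (log2 ratio 3.73), with 2 KO libraries and 1 WT library. Zbtb7a, a transcriptional repressor, had 1.72 and 0.166 (3.36) at a miR-15/16 site. Tbkbp1, an adaptor of the kinase TBK1, had 1.38 and 0.166 (3.05) at a miR-103 site. The WT values of Zbtb7a and Tbkbp1 are identical to each other in the table, and each footprint was held by 2 KO libraries and 1 WT library. The translation factor gene Eif4g1 had 1.72 and 0.271 (2.66), and the kinase gene Stk35 had 1.70 and 0.334 (2.34). For miR-17 the highest were the RNA-binding protein gene Qk (1.54 and 0.251, 2.61), the sorting nexin gene Snx8 (1.86), the phosphatase subunit gene Ankrd52 (1.61, though no KO library held it) and Rp2h (0.92).

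The lowest ratios in the same set came mostly, though not always, from footprints held by few KO libraries. At miR-15/16 sites the ubiquitin ligase gene Rnf111, which acts in TGF-β signalling, had 0.628 in KO and 3.60 in WT (-2.52), and 3110043O21Rik, the mouse counterpart of C9orf72, had 0.850 and 3.21 (-1.92). Both were found in 3 WT libraries, and in no more than 1 KO library. At sites shared by miR-103 and miR-15/16 the antiviral gene Rsad2 had 0.874 and 2.19 (-1.32), and 2010106G01Rik -0.81. At a miR-103 site alone the G protein gene Gna13 had -1.07. For miR-17, Rab10 was lowest, followed by Znfx1 (-1.69), Eif5b (-1.03) and the cytokine receptor subunit gene Il6st (-0.83). No KO library held the footprints of Eif5b and Il6st. Listed at 0 in KO were Zfp217 and Ms4a6c, with miR-17 sites, and Trim34a, with a miR-103 site.

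A small number of reported targets carried a site inside a footprint. Of 52 genes on a list of reported miR-17 targets, compiled from memory of earlier work, 22 had a footprint and 4 had a miR-17 site in one: Cdkn1a, Txnip, Tgfbr2 and Ncoa3. Over all genes with a footprint, 57 of 2223 (2.56%) had a miR-17 site in one. The listed genes also held more footprints each, a mean of 4.32 against 2.77, and the part of this in the count was not tested. Txnip, an inhibitor of thioredoxin, held 2 such footprints among its 8. One had 0.543 in KO and 0.177 in WT in all 6 libraries (log2 ratio 1.61), and the other 0.0651 and 0.128 (-0.96). The first also held GTGTCAG, the word most in excess in the footprints of the table, as did that of Tnks. Tgfbr2, the type II TGF-β receptor, had 0.484 and 0.129 (1.90), with 1 KO library and 2 WT libraries. Its log2 ratio was 2.90 above the median of its 5 other footprints. Ncoa3, a nuclear receptor coactivator, had 0.102 and 0.222 (-1.11), and Cdkn1a had a log2 ratio of -0.74, against a median of 0.63 for its 3 other footprints. The 95 footprints of the 22 genes had a median log2 ratio of -0.07, with 28 at least 2-fold higher in KO and 21 lower, where the shares over all footprints were 18.9% and 24.2%.

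For miR-15/16, 8 of 34 listed targets had a footprint and 1, Btg2, had a miR-15/16 site in one. Btg2, an antiproliferative gene, held 0.436 in WT and 1.17 in KO (1.42) at the site shared with miR-103, with 1 WT library and 2 KO libraries. At a second, miR-103 site it held 0.525 and 0.675. Over all genes the share with a miR-15/16 site was 5.08%. For miR-103, 8 of 26 listed symbols, with Eif2c1 also listed as Ago1, had a footprint and 1, Cdk6, a miR-103 site. Cdk6, the cyclin D kinase, had 0.583 in WT and 1.57 in KO (1.42), with 1 WT library and 2 KO libraries. Ccnd1, which encodes cyclin D1 and is on the lists of 2 families, had 10 footprints and no site of the 3 families in any. Over all genes the share with a miR-103 site was 2.65%.

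Over all genes with a footprint, 198 of 2223 (8.91%) had a site of any of the 3 families, and pathway lists were read beside that share. Of 31 cell cycle genes 10 had a footprint, and 3 had a site of the 3 families: Btg2, Cdk6 and Cdkn1a. Of 26 apoptosis and survival symbols, with Bcl2l11 also listed as Bim, 10 had a footprint, with 49 in all. Of these 10 genes 0 had a site, Mcl1, Bcl2l11 and Xiap included. Of 21 TGF-β and Smad genes 10 had a footprint and 3 had a site, Ski, Skil and Tgfbr2. Ski held 2 miR-15/16 footprints, of which the second, held by no KO library, had 0.0960 in KO and 0.281 in WT. Skil, its relative, had 0.506 in KO and 1.14 in WT (-1.17), also with no KO library. The list of the miRNA machinery holds 23 symbols and gives the Ago genes by 2 names, Ago and Eif2c. Of its genes 9 had a footprint, and 2 had a site. Eif2c1, which encodes Ago1, had 0.659 in KO and 0.425 in WT (0.63) at a miR-17 site, although no KO library held that footprint. The helicase gene Ddx6 had 0.237 and 0.421 (-0.83) at a miR-15/16 site. Genes of the cell cycle list held a mean of 2.80 footprints each, and those of the other 3 lists 4.00 or more, against 2.77 over all genes, and the part of this in the counts was not tested.

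Several genes held more than 1 footprint with a site, 15 in all. Luzp1 held 3 with miR-15/16 sites, 1.10 in KO and 2.14 in WT at the strongest, 0.922 and 0.560 at the next, and 0.553 and 0.431 at the last. No KO library held that last footprint. 4831426I19Rik held 3 footprints that together carried sites of all 3 families, with sums of 1.51 in KO and 1.69 in WT. St3gal1, a sialyltransferase, and Irf2bp2, a transcriptional co-repressor, each paired a miR-17 site with a site of another family, with sums of 0.645 and 0.825 for the first and of 0.825 and 1.28 for the second. Znfx1 held 2 miR-17 footprints with a sum of 0.705 in KO and 1.53 in WT, and 2700078E11Rik held 2 miR-15/16 footprints with 0.713 and 1.44. For Pdxk the sums were 0.142 and 0.236, with no KO library at either footprint. Those of Cdc42se2, whose 2 footprints overlap, were 0.462 and 0.172. Sums were higher in KO in 6 of the 15 genes, and members of 1 gene are not independent of each other.

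Sites of other families were searched in the same footprints. A miR-23, miR-27 or miR-24 site was present in 11 of the 220 (5.00%), against 3.89% of all footprints, among them Rasa1 and Rap2c with miR-24 sites and Rassf5 with a miR-27 site. None of the 220 held a site for miR-155 or miR-223, which were present in 0.654% and 0.670% of all footprints, while 4 (1.82%) held one for miR-142-3p, Fnbp1l included, against 0.781% of all footprints.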

How the data were processed

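Ago footprints of 6 libraries (3 WT, 3 KO) were taken from 1 table. Per the series design text, the authors aligned reads of at least 25 nt to mm9 and joined overlapping reads to clusters of at least 8 reads. They deposited occupancy as a ratio of footprint signal over RNA-Seq transcript expression. The deposited table also gives a count of libraries, 0 to 3 per genotype, that held each footprint. The submitters' processing notes list Bowtie 0.12.8, and bedtools with no version. The sources used here do not say how libraries were combined and scaled.

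Sequence came from NCBIM37 (the assembly of mm9) with pysam 0.24.0 and samtools 1.23.1, taking starts as counted from 0. Genes came from same-strand overlap with GENCODE vM1, with 3′ UTRs taken before coding sequence and the rest. Coordinates are mm9, counted from 1. Seeds were read from RefSeq miRNAs (GRCm38.p6), with no miRNA coordinate used. Log2 ratios of KO over WT used a pseudocount of 0.00161, 50% of the smallest value above 0, which understates differences of low values. Medians carry 95% order-statistic intervals and shares 95% Wilson intervals, both over footprints. The site search was checked on sequences with planted sites.

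With 1 combined value per genotype no test was made. Members and gene lists were chosen with earlier results of these data known. Named footprints were, per family, the 5 strongest, the 4 highest and 4 lowest ratios at or above median occupancy, those in all 6 libraries, those with separate or repeated sites, genes with several members and genes on the target lists. 1 footprint that met this rule is not reported here. The comparison within genes, and the sets without shared or repeated sites or in all 6 libraries, were added after the data were seen.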

Additional observations from a re-analysis of the deposited data

How the results depend on the processing

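No paired analysis was possible because the table holds 1 combined value per genotype, and for the same reason no library could be left out. For the 220 footprints the median log2 ratio, 0.27, moved out of its interval to 0.71 among footprints in at least 2 libraries of both genotypes, 0.68 in all 6 libraries and -0.12 relative to the other footprints of the gene. It changed sign, inside its interval, to -0.032 with the match within 15 nt of the midpoint. With pseudocounts of 0.1 and 1 it was 0.17 and 0.05. For miR-15/16 (0.29) the settings of 2 libraries, all 6 libraries and the midpoint gave 0.81, 0.59 and -0.040, and for miR-103 (0.66) the midpoint setting gave -0.092. For miR-17 (0.03) the value was -0.040 with the midpoint setting, -0.040 at or above median occupancy, -0.14 with a 6-nt match, -0.36 relative to the gene and 0.89 in the 3 footprints of all 6 libraries.

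The share at least 2-fold higher in KO (25.5%) became 40.0% with a 1.5-fold and 5.91% with a 4-fold rule, 15.9% and 3.64% with pseudocounts of 0.1 and 1, 34.1% in at least 2 libraries of both and 18.8% in all 6. The share at least 2-fold lower (20.5%) became 32.3%, 8.18%, 12.3%, 2.27%, 5.49% and 0% in the same order, and 27.4% relative to the gene. Both shares kept their interval in the other settings run, that of the 8-nt match and the removal of single genes included. Over all footprints the higher share was 12.3% and 1.66% with pseudocounts of 0.1 and 1. It was 26.2% in at least 2 libraries of both and 6.78% in all 6. The lower share over all footprints was 16.7%, 2.03%, 5.01% and 4.34% in the same order. Shares over all footprints under the 1.5-fold and 4-fold rules are not given here.

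The share of footprints with a miR-15/16 site (1.99%) was 1.59% and 1.61% in the upstream and downstream windows, 1.10% on the opposite strand, 3.25% in all 6 libraries, 0.526% for an 8-nt and 4.24% for a 6-nt match. For miR-103 (0.973%) these were 0.734%, 0.686%, 0.510%, 0.542%, 0.239% and 4.59%. For miR-17 (0.957%) they were 0.702% downstream, 0.718% on the opposite strand, 0.415% and 3.41% for the 8-nt and 6-nt matches, and 0.734% at or above median occupancy. The depth is unknown, so no limit of detection is given.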

Other observations

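The 7-nt word most in excess in footprints over both neighbouring windows was no site of these families and matched the seed of none of 1679 mature mouse miRNAs in the RefSeq table. It was GTGTCAG, present in 204 footprints (3.25%) against a mean of 35.0 in the windows. Of its 206 matches 202 lay after the footprint midpoint, at a median distance of 26 nt. All 6 libraries held 19.1% of the footprints with this word, against 5.89% of all footprints. Among the 220 footprints with a miR-15/16, miR-103 or miR-17 site, 3 also held it, those of Tnks, Ppp2r2a and, for Txnip, the one in all 6 libraries. Whether the word comes with Ago binding or with the linkers and primers of library making was not tested, and their sequences were not used here. The occupancy of these 3 footprints is read with that limit. This search was added after the data were seen.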
